A study of Mus musculus with 24 samples.

Results

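The immunity-related GTPases (IRGs) were followed here through 5 genes, Irgm1, Irgm2, Igtp, Iigp1 and Ifi47, in cultured mouse macrophages. Their probe sets, the groups of short probes that report 1 transcript on an Affymetrix array, were taken wherever the probe annotation gave only 1 of these symbols. This gave 6 of the 45037 deposited probe sets, 2 for Iigp1 and 1 for each other gene, so that all 5 genes were measured, among 18193 genes in all. Male mice gave the bone marrow, from which macrophages were grown for 6 days. All mice carried the Il10tm1Cgn allele, so that the controls too were deficient in Il10. B6 (C57BL/6J-Il10tm1Cgn) is resistant to colitis and C3Bir (C3H/HeJBir-Il10tm1Cgn) is susceptible, and the study asked about Cdcs1, a susceptibility locus on chromosome 3. BC-R3 (B6.Cg-Il10tm1Cgn Cdcs1) is B6 except for the Cdcs1 region, which comes from C3Bir. CB-R1 (C3Bir.Cg-Il10tm1Cgn Cdcs1) has the C3Bir background with a long chromosome 3 segment of B6 that contains Cdcs1. Cells of each strain were left unstimulated or received Cbir flagellin, a bacterial flagellin, at 1 µg/mL for the last 4 h of culture. Each of the 8 groups had 3 arrays, each of RNA pooled from 3 wells, and this number limits the precision. Wells of a donor went to both conditions, so the unstimulated and flagellin arrays of a strain share donors, while the fit treats all arrays as independent. The labels do not tie the array numbers to donors, so the p-values reflect only how far these arrays scatter, which may be technical.

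IRGs are large GTPases that cells make in response to interferons and that defend mouse cells against bacteria and protozoa living inside vacuoles. Irgm1, Irgm2 and Igtp (also called Irgm3) form the GMS subfamily, named for a methionine in the GTP-binding loop. They sit on the cell's own membranes and keep the other IRGs in the inactive, GDP-bound state there. Iigp1 (also called Irga6) and Ifi47 (also called Irgd) belong to the GKS subfamily, whose members load onto pathogen vacuoles and disrupt them together with the guanylate-binding proteins. The loading depends on the proteins that conjugate ATG8-type autophagy factors to membranes. Interferon-gamma acts on gene promoters mainly at GAS elements, and type I interferon mainly at interferon-stimulated response elements (ISREs).

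In the RefSeq annotation of GRCm38.p6, Irgm1, Irgm2, Igtp and Ifi47 lie on chromosome 11, away from the congenic segments on chromosome 3. Igtp and Irgm2 are neighbours with 0 protein-coding genes between them. The gene next to Igtp on its other side, Gm12250, is a further IRG gene, as is Gm12185 near Irgm1, and Ifi47 lies next to Tgtp2. The 4 promoters below are shown because the genes varied together across arrays and because a pair of these promoters are near copies. Each spans 250 bases before and 50 bases after the RefSeq start of the gene: Irgm1 at chr11:48871371-48871670 (minus strand), Irgm2 at chr11:58214727-58215026 (plus strand), Igtp at chr11:58199306-58199605 (plus strand) and Ifi47 at chr11:49076337-49076636 (plus strand). Capitals mark matches to an ISRE-type motif (GAAA, any 2 bases, GAAA) and to the GAS motif TTCNNNGAA, both searched on both strands, and each sequence runs 5′ to 3′ on the gene's strand.
Irgm1: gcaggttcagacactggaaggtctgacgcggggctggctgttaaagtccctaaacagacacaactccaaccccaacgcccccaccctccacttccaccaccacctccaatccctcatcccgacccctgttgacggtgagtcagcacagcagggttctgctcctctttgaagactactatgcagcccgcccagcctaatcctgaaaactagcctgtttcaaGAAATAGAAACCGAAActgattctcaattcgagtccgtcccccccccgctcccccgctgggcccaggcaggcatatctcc
Irgm2: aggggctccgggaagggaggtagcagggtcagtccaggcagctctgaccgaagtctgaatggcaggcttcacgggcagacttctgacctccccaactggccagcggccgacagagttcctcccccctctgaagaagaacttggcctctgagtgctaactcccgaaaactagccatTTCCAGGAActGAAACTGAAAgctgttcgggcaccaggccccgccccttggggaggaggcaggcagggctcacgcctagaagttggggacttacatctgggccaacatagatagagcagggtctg
Igtp: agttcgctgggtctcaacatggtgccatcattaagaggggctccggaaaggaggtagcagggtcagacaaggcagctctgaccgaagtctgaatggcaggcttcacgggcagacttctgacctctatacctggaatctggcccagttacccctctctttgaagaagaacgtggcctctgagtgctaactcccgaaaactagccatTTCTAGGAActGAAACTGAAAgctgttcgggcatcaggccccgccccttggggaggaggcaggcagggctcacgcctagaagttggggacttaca
Ifi47: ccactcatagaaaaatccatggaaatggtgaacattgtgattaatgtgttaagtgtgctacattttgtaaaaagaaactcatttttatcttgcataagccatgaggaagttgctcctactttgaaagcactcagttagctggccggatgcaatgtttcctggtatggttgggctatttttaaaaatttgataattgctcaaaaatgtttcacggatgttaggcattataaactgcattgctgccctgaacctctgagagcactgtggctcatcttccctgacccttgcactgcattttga

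The ISRE-type motif was present in 3 of these 4 promoters. Irgm1 had 2 matches at -30 and -24 (first base, with -1 the last base before the start), which share their middle GAAA. Irgm2 had 1 match at -64 and Igtp had 1 at -34, both with the letters GAAACTGAAA. The GAS motif was present in Irgm2 at -75 (TTCCAGGAA) and in Igtp at -45 (TTCTAGGAA), in each just upstream of the ISRE-type match and not overlapping it. Of 32851 promoters of 300 bases in the same table, 3.443% held the ISRE-type motif and 8.298% the GAS motif. The Irgm2 and Igtp promoters were identical at 244 of 265 aligned positions (92.08%), and the longest run they shared was 61 bases. The other pairs were identical at 50% to 63.81%. Ifi47 had neither motif in this window, which says only that these letters are not there. A match is a description of the letters and not of binding.

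Across the series, array medians lay between 6.55 and 6.64 (log2), and arrays of the same group correlated at 0.987 to 0.998. The mean over 9 macrophage markers, among them Csf1r and Cd68, was 11.98 to 12.49 on the 24 arrays. Some unstimulated arrays stood apart within their group. Over 18 inflammatory cytokine genes, B6 unstimulated array 2 had a mean of 10.36 and array 3 one of 10.42, against 8.50 on array 1. The B6 flagellin arrays had 8.19, 7.75 and 7.64, so these genes, which macrophages express on activation, were higher on all 3 arrays labelled unstimulated than on all 3 labelled flagellin. Whether the wells labelled unstimulated had been activated, or labels exchanged, was not tested, and every B6 direction given here is that of the labels. The C3Bir ones numbered 2 and 3 had 8.70 and 8.57, against 7.47 on array 1. BC-R3 unstimulated array 1 had 8.43, against 7.40 and 7.34 on arrays 2 and 3. Results that use these arrays are given with and without them, called the "4 high arrays" (B6 and C3Bir, unstimulated, numbers 2 and 3) and the "3 arrays apart" (B6, C3Bir and BC-R3, unstimulated, number 1). For all 6 IRG probe sets, B6 unstimulated array 1 was the lowest of its group and BC-R3 unstimulated array 1 the highest. Leaving out the 4 high arrays thus lowers the B6 unstimulated mean, and leaving out the 3 arrays apart raises it. The number 1 flagellin arrays of B6 and C3Bir, the highest of their groups for all 6, were kept.

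Irgm1, whose loss leaves mice unable to control several intracellular bacteria, had log2 values of 10.19, 11.04 and 11.07 on B6 unstimulated arrays 1, 2 and 3. B6 flagellin arrays had 10.25, 8.38 and 9.005. The first B6 flagellin array thus lay inside the range of the unstimulated arrays, and the other two lay below it. In C3Bir the values were 9.72, 9.55 and 9.59 unstimulated and 9.98, 8.91 and 9.34 with flagellin. BC-R3 had 10.25, 9.19 and 9.17 unstimulated and 9.35, 9.22 and 9.74 with flagellin. In CB-R1 they were 9.02, 9.30 and 10.05 unstimulated and 9.56, 9.55 and 10.32 with flagellin. Conditions overlapped in each of the 4 strains for Irgm1.

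Irgm2, a regulator found mainly at the Golgi, had 10.33, 11.12 and 11.09 on the B6 unstimulated arrays and 9.97, 7.85 and 8.50 on the B6 flagellin arrays. All 3 unstimulated arrays lay above all 3 flagellin arrays. C3Bir had 8.96, 9.29 and 9.08 unstimulated and 9.43, 8.56 and 8.63 with flagellin. BC-R3 had 10.03, 8.51 and 8.29 unstimulated and 8.66, 8.57 and 9.32 with flagellin, and its first unstimulated array lay above the other 5 arrays of that strain. CB-R1 had 8.60, 8.74 and 9.31 unstimulated and 9.38, 9.14 and 9.80 with flagellin. The conditions overlapped in these 3 strains.

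Igtp, the third regulator, found at the endoplasmic reticulum and on lipid droplets, had 10.64, 11.82 and 11.72 on the B6 unstimulated arrays. B6 flagellin arrays had 10.24, 8.66 and 8.89, without overlap with the unstimulated arrays. C3Bir had 9.64, 9.87 and 9.72 unstimulated and 10.07, 9.10 and 9.30 with flagellin. BC-R3 had 10.27, 8.79 and 8.78 unstimulated and 9.07, 9.14 and 9.74 with flagellin. CB-R1 had 9.03, 9.24 and 9.97 unstimulated and 9.74, 9.76 and 10.46 with flagellin. As for Irgm2, the conditions overlapped outside B6.

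Iigp1, the effector that is loaded onto the vacuole of Toxoplasma, had the widest range over the 24 arrays, 4.76 on the log2 scale for 1 of its probe sets and 4.19 for the other, against 2.69 to 3.67 for the other genes. Probe set 1419043_a_at had 9.87, 10.70 and 11.05 on the B6 unstimulated arrays and 9.18, 6.30 and 6.79 on the B6 flagellin arrays. In C3Bir it had 8.90, 8.32 and 8.15 unstimulated and 9.58, 7.47 and 7.24 with flagellin. The B6 conditions were separate, and those of C3Bir overlapped, with C3Bir flagellin array 1 above all 3 unstimulated arrays. BC-R3 had 9.06, 6.80 and 6.47 unstimulated and 7.18, 6.73 and 8.36 with flagellin. CB-R1 had 7.55, 7.77 and 9.24 unstimulated and 8.98, 8.34 and 9.73 with flagellin. The other probe set, 1419042_at, ran from 5.95 on B6 flagellin array 2 to 10.14 on B6 unstimulated array 3, and correlated with the first at r = 0.986 over the 24 arrays.

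Ifi47, the other GKS-type member, had 11.95, 12.82 and 12.99 on the B6 unstimulated arrays and 11.47, 9.32 and 9.85 on the B6 flagellin arrays. Here too all 3 unstimulated arrays lay above all 3 flagellin arrays. C3Bir had 10.46, 10.51 and 10.33 unstimulated and 10.94, 9.79 and 9.75 with flagellin. BC-R3 had 11.49, 9.78 and 9.58 unstimulated and 10.11, 9.98 and 10.81 with flagellin. CB-R1 had 9.90, 10.01 and 10.98 unstimulated and 10.84, 10.42 and 11.41 with flagellin. The conditions overlapped in C3Bir, BC-R3 and CB-R1.

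**Figure D1:**
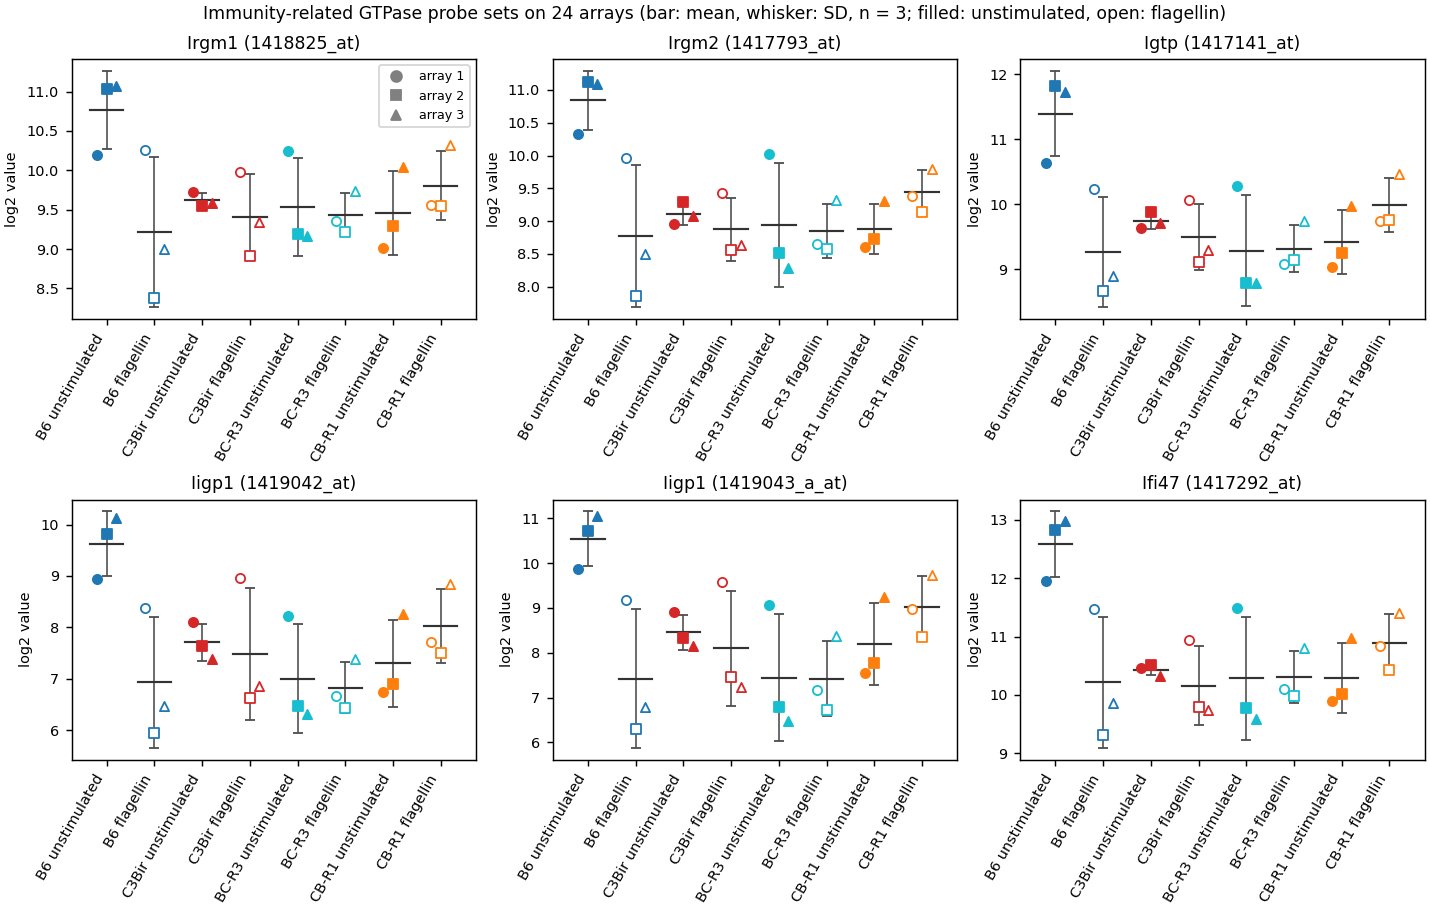
Log2 value of each of the 6 probe sets (y axis) on every array of the 8 groups (x axis); symbols give the array number, filled symbols are unstimulated and open ones flagellin, and the bar and whisker give mean and SD (n = 3). B6 unstimulated arrays 2 and 3 are the highest of the 24 for every probe set, and B6 flagellin array 2 is the lowest.

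The order of the 8 group means was alike at its top for all 6 probe sets. B6 unstimulated was highest, at 10.77 ± 0.50 for Irgm1, 10.84 ± 0.45 for Irgm2, 11.39 ± 0.66 for Igtp and 12.59 ± 0.56 for Ifi47 (mean ± SD, n = 3). For Iigp1 it was 9.63 ± 0.62 on 1419042_at and 10.54 ± 0.61 on 1419043_a_at. CB-R1 flagellin came next for each, from 8.02 ± 0.72 for Iigp1 on 1419042_at to 10.89 ± 0.50 for Ifi47. The arrays of these top groups did not overlap for 5 probe sets, where 39.0% of all probe sets did not, and overlapped for Irgm1. Every later pair of neighbours in the order overlapped. The lowest mean was B6 flagellin for Irgm1, Irgm2 and Igtp, BC-R3 flagellin for Iigp1 on both probe sets, and C3Bir flagellin for Ifi47. That last place is within the spread, since quantile normalization put B6 flagellin last for Iigp1 on 1419043_a_at, and median centring put BC-R3 unstimulated last for Igtp. The highest and lowest group means were 1.55 apart on the log2 scale for Irgm1, 2.07 for Irgm2, 2.13 for Igtp, 2.43 for Ifi47, and 2.80 and 3.12 for Iigp1.

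In B6 macrophages all 5 genes passed the test of flagellin against unstimulated cells. On the arrays labelled flagellin, Igtp fell by 2.13 ± 0.43 on the log2 scale (± SE, 4.38-fold lower, limma adjusted p = 0.00481). Irgm2 fell by 2.07 ± 0.45 (4.20-fold, limma adjusted p = 0.00633) and Irgm1 fell by 1.55 ± 0.40 (2.93-fold, limma adjusted p = 0.0144). Of the GKS-type members, Ifi47 fell by 2.37 ± 0.51 (5.17-fold, limma adjusted p = 0.00652). Iigp1 fell by 2.70 ± 0.65 on 1419042_at (limma adjusted p = 0.0106) and by 3.12 ± 0.76 on 1419043_a_at (limma adjusted p = 0.0108). Adjusted p-values are Benjamini-Hochberg values over all 45033 probe sets with values, at a threshold of 0.05. All 6 probe sets were thus called lower, where 7.94% of all probe sets were, and the arrays did not overlap for 5 of 6, where 26.4% of all probe sets did not. The median difference was -2.25 for the 6 and -0.03 for all probe sets. RNA from a culture cannot tell fewer cells that express a gene from less RNA per cell.

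The B6 calls moved with the unstimulated arrays that were kept, and the sign of the differences did not. Without the 4 high arrays, which leaves B6 unstimulated with array 1 alone, the 6 differences were -2.45 to -0.98, against -3.12 to -1.55 with all arrays. No probe set of any gene was called there (limma; 3029 of all had an unadjusted p under 0.05, and the adjusted p was 0.734 to 0.763 for the 6), so that fit does not bear on the members' calls. The lone array is assumed to vary like the other groups. Without the 3 arrays apart the 6 differences were -3.46 to -1.84 and all 6 were called. Leaving out B6 unstimulated array 2, or array 3, left 3 of 6 called, those of Igtp, Irgm2 and Ifi47. In a fit of the 6 B6 arrays alone, 0 of 6 were called (limma adjusted p 0.136 to 0.147). Averaged over the 5 genes, B6 unstimulated arrays 1, 2 and 3 had 10.60, 11.50 and 11.58, and the flagellin arrays had 10.22, 8.10 and 8.61. Array 1 of each condition thus lay between the other arrays of its own condition and those of the other. Between the arrays numbered 1, flagellin minus unstimulated was 0.06 for Irgm1 and -0.69 to -0.36 for the other probe sets. For numbers 2 and 3 it was -4.41 to -2.06, so the fall was small or absent between the arrays numbered 1. The part of the cytokine level of these arrays in the result was not tested.

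In the other strains no member passed the test of flagellin against unstimulated cells, where 0% of all probe sets were called for C3Bir, 0% for BC-R3 and likewise 0% for CB-R1 (limma; 3404, 4024 and 1436 of all probe sets had an unadjusted p under 0.05, and 0 of the 6 in any of the 3 strains). Differences were -0.36 to -0.21 in C3Bir and -0.17 to 0.03 in BC-R3. In CB-R1 they were 0.35 ± 0.40 for Irgm1, 0.56 ± 0.45 for Irgm2, 0.58 ± 0.43 for Igtp and 0.60 ± 0.51 for Ifi47 (± SE). For Iigp1 they were 0.72 ± 0.65 and 0.82 ± 0.76. The 95% intervals of the CB-R1 differences reached from -0.48 to 1.19 for Irgm1 and from -0.76 to 2.41 for Iigp1 on 1419043_a_at, and both include a 2-fold rise and a value of 0. In CB-R1 the flagellin minus unstimulated difference of same-numbered arrays was above 0 for all numbers and probe sets, at 0.25 to 1.43. The share of all probe sets with such agreement was not counted. The 6 probe sets deviated together (r = 0.918 to 0.984), so they are not separate observations. In C3Bir this difference was above 0 for number 1 and below 0 for numbers 2 and 3, for all 6. In BC-R3 it was below 0 for number 1, above 0 for number 3 and mixed for number 2. The 3 same-numbered pairs of CB-R1 deviated together (r = 0.218 to 0.504 over all probe sets), as did those of C3Bir (0.292 to 0.447). With the number as a block within strain the CB-R1 intervals were -0.51 to 1.21 for Irgm1 and -0.71 to 2.36 for Iigp1 on 1419043_a_at, and 0 of 6 were called. The median BC-R3 difference was -0.06, and it was 0.49 without BC-R3 unstimulated array 1, which was the highest of its group for all 6 probe sets.

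The change with flagellin was then compared between strains directly. The BC-R3 change exceeded the B6 change by 2.16 ± 0.60 for Igtp (limma adjusted p = 0.0370) and by 2.39 ± 0.73 for Ifi47 (limma adjusted p = 0.0481). For both genes this sets a change near 0 in BC-R3 (0.03 and 0.02) against the fall in B6. Thus 2 of 6 probe sets were called higher, where 3.31% of all probe sets were. The other 4 had differences of 1.45 to 3.10 and limma adjusted p-values of 0.0556 to 0.102. The calls depended on the settings and the arrays. With limma's trend and robust options 0 of 6 were called, and with quantile normalization Igtp alone was. Without the 3 arrays apart all 6 were called, without the 4 high arrays 0 of the 6 and 0 of all probe sets were, and leaving out single arrays gave 0 to 6. The count was 6 without B6 unstimulated array 1, B6 flagellin array 1 or BC-R3 unstimulated array 1. It was 1 without B6 flagellin array 2 or BC-R3 flagellin array 1, and 0 without any of the other 7 arrays. Between C3Bir and B6 the change differed by 1.34 to 2.76 and no member was called, where 0% of all probe sets were (6 of 6 and 6254 of all probe sets had an unadjusted p under 0.05, limma adjusted p 0.203 to 0.302 for the 6). Without the 3 arrays apart, Irgm2, Igtp and Ifi47 were called there. Between CB-R1 and C3Bir it differed by 0.56 to 1.19, also with no member called, where 0% of all probe sets were (0 of 6 and 2237 of all with an unadjusted p under 0.05, limma). These comparisons with B6 use the same B6 arrays.

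**Figure D2:**
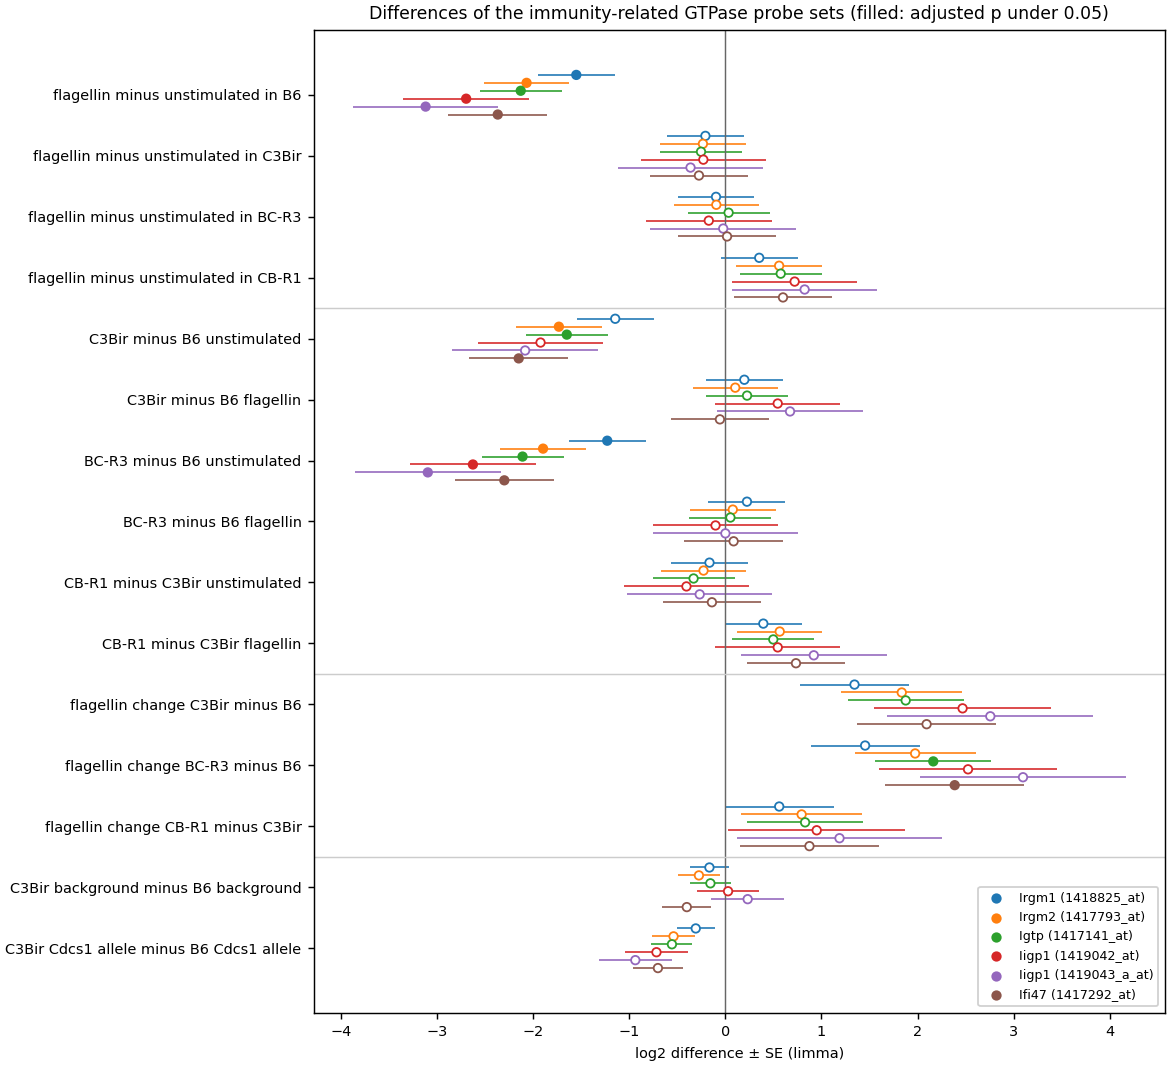
Log2 difference with SE of each of the 6 probe sets (x axis) in the 15 contrasts (y axis), from limma over all 24 arrays; filled points have an adjusted p under 0.05. Filled points appear for flagellin in B6 (6), C3Bir minus B6 unstimulated (3), BC-R3 minus B6 unstimulated (6) and the flagellin change of BC-R3 minus B6 (2).

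Strains were compared next within each condition. Without flagellin, all 5 genes were lower in BC-R3 than in B6, and the arrays of 5 of the 6 probe sets did not overlap, where 37.1% of all probe sets did not. Igtp differed by -2.11 ± 0.43 (BC-R3 minus B6, limma adjusted p = 0.00219) and Irgm2 by -1.90 ± 0.45 (limma adjusted p = 0.00497). Irgm1, which overlapped, differed by -1.23 ± 0.40 (limma adjusted p = 0.0293), and Ifi47 by -2.30 ± 0.51 (limma adjusted p = 0.00375). Iigp1 differed by -2.63 ± 0.65 (limma adjusted p = 0.00701) and -3.10 ± 0.76 (limma adjusted p = 0.00639). All 6 probe sets were called lower, where 11.2% of all probe sets were. Without the 4 high arrays the differences were -2.43 to -0.66 and 0 of 6 and 3 of all probe sets were called, and without the 3 arrays apart they were -4.24 to -1.87 and 6 were. The wider gap without the 3 arrays apart follows from which arrays were left out, as given above. Leaving out array 2 or 3 of either group lost the call of Irgm1. In a fit of these 6 arrays alone 0 of 6 were called (limma adjusted p 0.0577 to 0.0756).

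Between the parental strains without flagellin, 3 of the 6 probe sets were lower in C3Bir than in B6, where 5.36% of all probe sets were. Ifi47 differed by -2.15 ± 0.51 (limma adjusted p = 0.00798), Irgm2 by -1.73 ± 0.45 (limma adjusted p = 0.0127) and Igtp by -1.65 ± 0.43 (limma adjusted p = 0.0133). Irgm1 differed by -1.15 ± 0.40 (limma adjusted p = 0.0639) and Iigp1 by -1.92 ± 0.65 and -2.08 ± 0.76 (limma adjusted p = 0.0562 and 0.0756). The arrays did not overlap for any of the 6, where 27.7% of all probe sets did not. Without the 4 high arrays 0 of 6 and 448 of all probe sets were called (-1.49 to -0.47 for the 6). Without the 3 arrays apart, and in a fit of these 6 arrays alone, 6 were. Leaving out B6 unstimulated array 2 or array 3 left Ifi47 as the single call in each case, and leaving out array 1 gave 5. B6 and C3Bir differ in sequence across the genome, and the part of variants under the probes in these differences was not tested. CB-R1 and C3Bir without flagellin differed by -0.41 to -0.14 with 0 of 6 called, where 0.586% of all probe sets were (limma; 0 of 6 and 6717 of all with an unadjusted p under 0.05).

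With flagellin no member passed the test in the 3 strain pairs compared. C3Bir minus B6 was -0.06 to 0.67, where 5.68% of all probe sets were called, and BC-R3 minus B6 was -0.10 to 0.22, where 0.0222% were. CB-R1 minus C3Bir was 0.39 to 0.92, all on the higher side, where 0.0555% of all probe sets were called. None of the 6 had an unadjusted p under 0.05 in these 3 comparisons (limma; 8147, 1831 and 3717 of all probe sets did).

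Averaged over both conditions, neither the background nor the Cdcs1 allele gave a call for a member. The background contrast set C3Bir and CB-R1 against B6 and BC-R3, and gave -0.40 to 0.23, with 22.4% of all probe sets called and 0 of the 6 at an unadjusted p under 0.05 (limma; 14581 of all). The allele contrast set the strains with the C3Bir allele of Cdcs1 (C3Bir and BC-R3) against those with the B6 allele (B6 and CB-R1). It gave -0.94 to -0.31, with 1.32% of all probe sets called. Of the 6, 5 had an unadjusted p under 0.05 there (limma; 7303 of all), the exception being Irgm1, and the lowest limma adjusted p was 0.164, for Ifi47. Without the 3 arrays apart 4 of 6 were called, those of Irgm2, Igtp, Ifi47 and Iigp1 on 1419043_a_at. Without BC-R3 unstimulated array 1 alone Ifi47 was called. The parts of the allele contrast were unlike. The median of the 6 was -2.21 for BC-R3 minus B6 unstimulated and 0.06 for the same strains with flagellin. For CB-R1 minus C3Bir, where the B6 allele comes first, it was -0.25 unstimulated and 0.56 with flagellin. The unstimulated part in the C3Bir background thus went the other way, and the average rests mainly on the unstimulated B6 comparison.

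The genes varied closely together. Pearson's r between pairs of the 6 probe sets over the 24 arrays was 0.934 to 0.992, and r of the deviations from the group means was 0.918 to 0.984, as a description of arrays that share groups and hybridizations. Among the other genes, those most like Irgm1 were Ifit2, an interferon-induced inhibitor of viral translation (r = 0.975), Parp12 (0.968) and Cmpk2, a mitochondrial nucleotide kinase (0.965). Irgm2 was most like Mx1, an antiviral dynamin-like GTPase (0.995), Cmpk2 (0.990) and Parp9 (0.985). The genes most like Igtp were Helz2 (0.984), Parp14 (0.984) and Mx1 (0.981). For Iigp1 they were Xaf1 (0.976), Gm4951, a further IRG gene (0.973), and Ifit3 (0.972). Ifi47 was most like Mx1 (0.991), Znfx1 (0.991) and Parp9 (0.990), each over 24 arrays.

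Genes known to act upstream of the IRGs differed in how they followed them. Irf1, a transcription factor induced by interferon-gamma, had r of 0.825 to 0.932 with the 5 genes, and Stat2, part of the type I interferon complex, had 0.896 to 0.958. The values for its partner Irf9 were 0.789 to 0.893, and for Socs1, the feedback inhibitor of JAK kinases, 0.747 to 0.894. Irf8, a myeloid transcription factor, had -0.51 to -0.29. Ifng, the gene of interferon-gamma, had -0.13 to -0.09, and its receptor genes Ifngr1 and Ifngr2 had -0.07 to 0.12 and -0.16 to -0.06. The Ifng probe set had a mean of 4.68 and reached 4.93 on its highest array, below the lower quartile of every array (5.29 to 5.42).

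The rest of the pathway was described for the same contrasts from lists of genes, each gene taken at its probe set with the highest mean. In B6 with flagellin, 25 of 26 measured type I interferon-stimulated genes fell and 0 rose, with a median difference of -1.68, against -0.02 for all 18193 genes, of which 8.40% were called lower and 11.8% higher. Mx1 fell by 3.49 ± 0.76 (limma adjusted p = 0.0068) and Oasl1 had -3.38 ± 0.71 (limma adjusted p = 0.00568). Of 6 guanylate-binding proteins, the partners of IRGs on vacuoles, 5 fell (median -2.56), with Gbp7 at -2.84 ± 0.59 and Gbp6 at -2.83 ± 0.49. The sixth, Gbp2b, had -0.04 and is named after its value was seen. Of 13 other IRG symbols, 4 had a probe set, and of these Gm4951 fell by 2.19 ± 0.68 and Gm12185 by 0.37 ± 0.09. The testis gene Irgc1 (0.00) and Irgq (0.04), an IRG-like gene, did not pass and are likewise named after their values were seen.

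Among the regulators in B6, to be read against the 8.40% of all genes called lower, 6 of 12 interferon transcription factors fell, among them Nlrc5, the activator of MHC class I genes (-1.96 ± 0.33), Irf7 (-1.75 ± 0.47), Batf2 (-1.54 ± 0.23), Stat2 (-1.46 ± 0.40) and Irf1 (-1.45 ± 0.30). Of 7 feedback inhibitors 3 fell, the deISGylase Usp18 (-2.60 ± 0.54), Socs1 (-1.85 ± 0.33) and the phosphatase Ptpn2 (-0.57 ± 0.15). Of 7 receptors and kinases, Jak2 (-1.35 ± 0.36) and Tyk2 (-0.61 ± 0.14) fell, while Ifngr1 had 0.19 ± 0.15 and Ifngr2 0.30 ± 0.14 and did not pass. Among 10 interferons and cytokines that induce them 5 fell, with Il12b at -4.08 ± 0.95 and Il18 at -1.41 ± 0.34. Ifnb1 fell by 0.37 ± 0.11, and Ifng had 0.08 ± 0.09 and did not pass. Of 16 genes in the ATG8 conjugation list 5 rose and 0 fell, beside the 11.8% of all genes called higher. They were led by the autophagy receptor Nbr1 (0.62 ± 0.13), Ulk1 (0.44 ± 0.12) and Map1lc3b, which encodes an ATG8-type protein (0.43 ± 0.11). The genes named here are not themselves conjugating proteins, so the count does not describe that machinery alone. Without the 4 high arrays 0 genes were called in each of these 8 lists, as over all probe sets, and the medians were -1.15 for the interferon-stimulated genes and -1.17 for the guanylate-binding proteins.

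**Figure D3:**
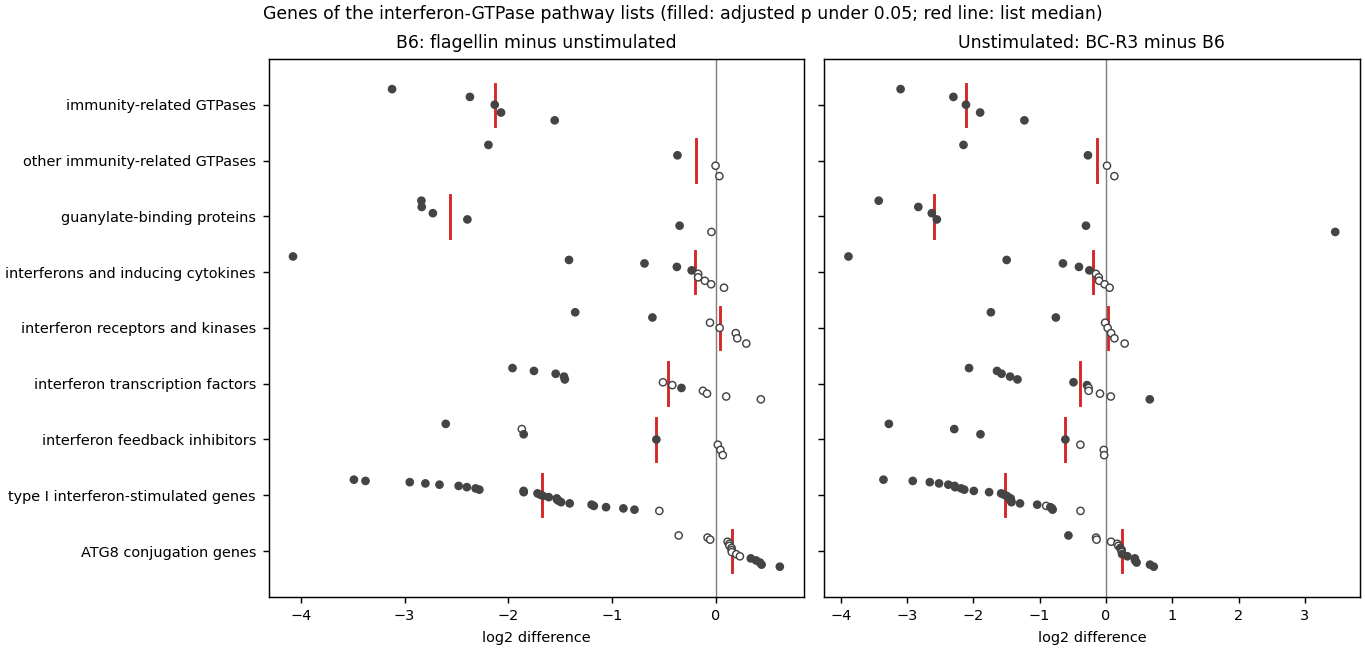
Log2 differences of the genes of 9 lists (points; y axis: list) for flagellin minus unstimulated in B6 (left) and BC-R3 minus B6 unstimulated (right); filled points have an adjusted p under 0.05 and the red line is the list median. The 5 GTPases and 25 of 26 interferon-stimulated genes are filled below 0 on the left, and Gbp2b stands alone above 3 in its list on the right.

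The lists were counted between strains without flagellin too. In BC-R3 against B6, 24 of 26 interferon-stimulated genes were lower (median -1.52, against -0.03 for all genes, of which 12.0% were called lower and 17.1% higher). Of 6 guanylate-binding proteins 5 were lower, with Gbp2 at -3.43 ± 0.61, and Gbp2b was higher, at 3.46 ± 0.57. In C3Bir against B6, 21 of 26 interferon-stimulated genes were lower (median -1.43) and 2 of 6 guanylate-binding proteins were, with Gbp2b again higher, at 5.12 ± 0.57. Of all genes 5.86% were called lower there and 9.71% higher. Some guanylate-binding protein genes lie on chromosome 3, the chromosome of the congenic segments. The part of that position, or of variants under the probes, in their strain differences was not tested. Of the 10 interferons and inducing cytokines 5 were lower in BC-R3 and 0 in C3Bir, and of the 4 other IRGs 2 and 0. Irf1 was lower in both (-1.64 ± 0.30 and -1.33 ± 0.30). Ifngr1, the ligand-binding chain of the interferon-gamma receptor, was lower in C3Bir than in B6 (-0.56 ± 0.15) and had 0.28 ± 0.15 in BC-R3, which did not pass. Without the 4 high arrays no interferon-stimulated gene was called in either comparison (medians -1.03 and -0.80). These comparisons share the B6 unstimulated arrays.

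The arrays separated the mean over the GTPases from that over the cytokine genes in C3Bir. The mean over the 5 GTPases was 9.53, 9.51 and 9.37 on C3Bir unstimulated arrays 1, 2 and 3, although the guanylate-binding proteins were 7.63, 9.10 and 9.05 and the cytokines 7.47, 8.70 and 8.57. The single GTPase genes were less even there, with Iigp1 on 1419043_a_at at 8.90, 8.32 and 8.15 and Irgm2 at 8.96, 9.29 and 9.08. The mean over the interferon-stimulated genes stayed with that over the GTPases on these arrays, at 10.53, 10.48 and 10.27. In B6 all these lists were highest on unstimulated arrays 2 and 3, where the interferon-stimulated genes had 12.24 and 12.24 and the guanylate-binding proteins 9.44 and 9.35. In BC-R3 all were highest on unstimulated array 1, where the GTPase mean was 10.22, against 8.61 and 8.46 on arrays 2 and 3. In CB-R1 the third array of each condition was highest for the GTPases, at 9.91 unstimulated and 10.34 with flagellin.

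**Figure D4:**
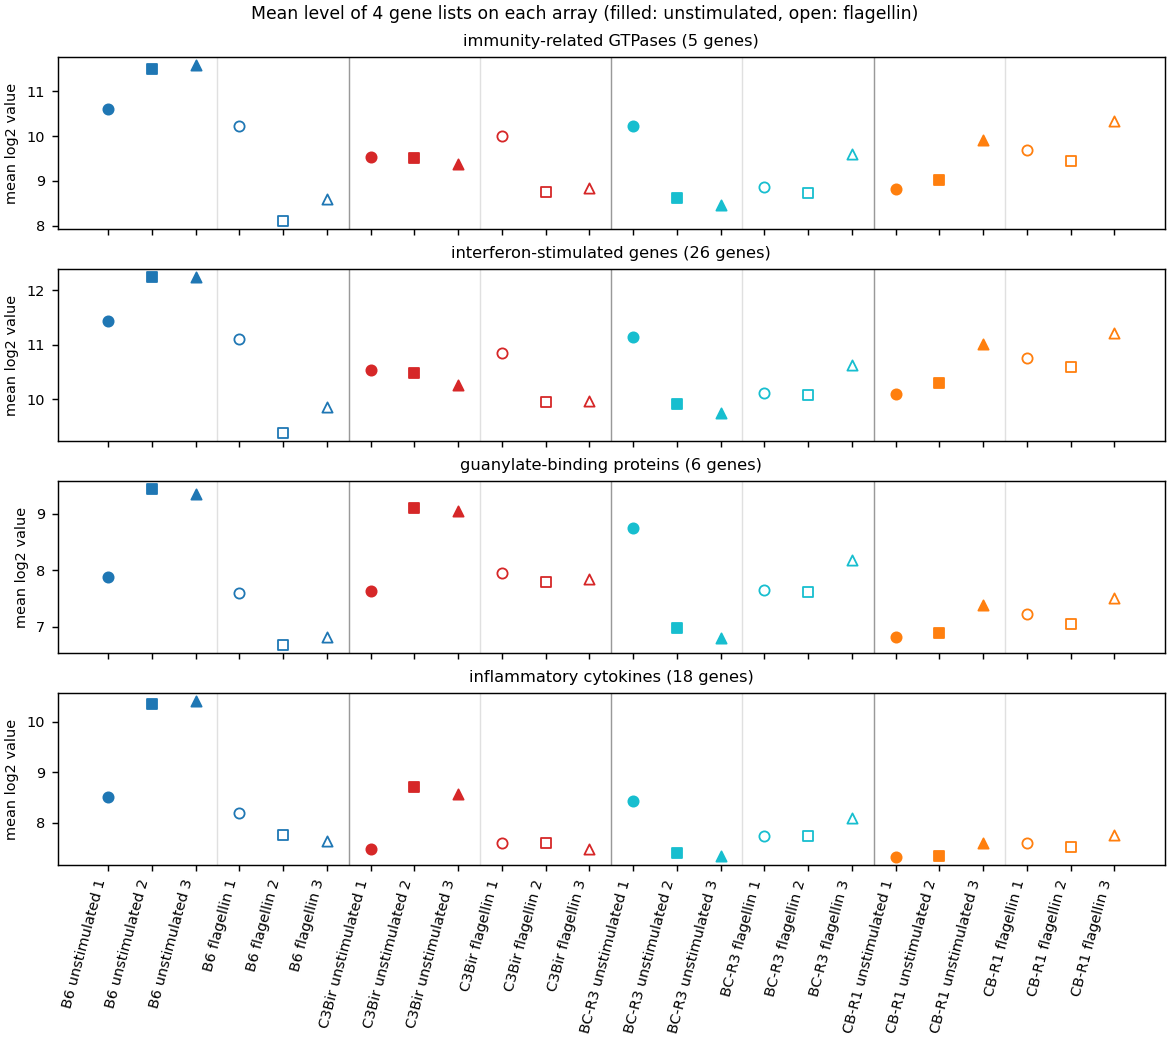
Mean log2 value (y axis, not starting at 0) of 4 gene lists on each of the 24 arrays (x axis); filled symbols are unstimulated and open ones flagellin. C3Bir unstimulated arrays 2 and 3 are raised over array 1 for the guanylate-binding proteins and cytokines, and the mean over the 5 GTPases lies between 9.37 and 9.53 on all 3.

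Markers of other cell types were compared on the same arrays. The mean over 11 T and NK cell markers was 6.04 to 6.27 and that over 5 B cell markers 6.43 to 6.98. The mean over 8 neutrophil markers was 10.53 to 12.17, with 11.29, 10.68 and 10.60 on the B6 unstimulated arrays in order of number, and the 6 CB-R1 arrays were the highest of the 24, at 11.93 to 12.17. The mean over 8 stromal cell markers was 7.20, 7.83 and 8.18 on the B6 unstimulated arrays and 7.24, 7.94 and 6.77 on the B6 flagellin arrays, so that it followed the GTPases on the former and not on the latter. The mean over 7 mast cell markers, at 5.80 to 6.13 on all arrays, was 6.09 to 6.13 on the B6 unstimulated arrays. On the B6 flagellin arrays it was 5.80 to 5.96, without overlap, where 26.4% of all single probe sets did not overlap. The mean over 7 dendritic cell markers was 6.40 to 6.58 on the B6 unstimulated and 6.28 to 6.42 on the B6 flagellin arrays. That over 4 erythroid markers was 6.44 to 6.57 and 6.22 to 6.49. Both lists thus ran higher on the unstimulated arrays, with overlap. In B6 with flagellin 0 of 9 macrophage and 0 of 8 neutrophil markers were called. Called lower were 2 of 11 T and NK cell markers (Cd3e and Ncr1), 2 of 7 mast cell markers (Cpa3 and Fcer1a) and 0 of 8 stromal cell markers. Of all genes 8.40% were called lower. The T and NK cell list and the mast cell list are low, each with 2 genes whose mean lay below 5.42, the highest lower quartile of an array. The part of other cells in the GTPase differences was not tested.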

How the data were processed

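RNA of 24 cultures was measured on Affymetrix arrays. The deposited values are log2 signals in 1 table, and their normalization is not stated in the labels or the file. The table has 45037 probe sets, of which 45033 hold values. In the platform annotation 34944 of them carry 1 symbol, 931 carry several (left unnamed) and 9158 carry none. Values were used as deposited, without a filter. With limma 3.58.1 in R 4.3.3, 8 group means were fitted to all 24 arrays (16 residual and 4.02 prior degrees of freedom, eBayes defaults). The 15 contrasts were tested two-sided with Benjamini-Hochberg adjustment over all probe sets at 0.05. The script was tested on simulated data.

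Named were all probe sets of the 5 genes, the 3 genes most correlated with each, up to 4 called genes per list with the largest difference, and a fixed set of interferon-pathway genes. The members and lists were chosen with earlier results of these data known. Promoters came from RefSeq (GRCm38.p6), for 4 of the 5 genes, and were compared with biopython 1.88. Of 12 pairs of same-numbered arrays, 8 had deviations correlated above 0.1 (range -0.44 to 0.50), so numbers were not taken as pairs in the fit over all strains; in C3Bir and CB-R1 all 3 pairs did, and a fit with the number as a block within strain is given beside the CB-R1 result. No pair of arrays was identical. Alternatives were other scalings, a filter, 1 value per gene, other variance options, the compared arrays alone, blocks by number and leaving out arrays. Chosen after seeing the data were the exclusions of 4 and of 3 unstimulated arrays.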

Additional observations from a re-analysis of the deposited data

Results flagged for a closer look

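The change with flagellin differed between BC-R3 and B6, by limma's test of the difference itself, for Igtp (2.16, log2) and Ifi47 (2.39). In B6 their differences were -2.13 and -2.37, and in BC-R3 they were 0.03 and 0.02. In B6 all 3 flagellin arrays lay below all 3 unstimulated arrays for both genes, while the BC-R3 conditions overlapped. The calls moved with single arrays, as given above, and no cause was tested.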

How the results depend on the processing

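Precision is limited by 3 arrays a group, and without the 4 high arrays B6 unstimulated has 1 array, so that 0 to 448 of all probe sets pass in the comparisons named next. Counts below are of the 6 probe sets. Without the 4 high arrays 0 were called for flagellin in B6, C3Bir minus B6 and BC-R3 minus B6 unstimulated, and the flagellin change of BC-R3 minus B6, and the median background difference was 0.0046, against -0.16. Without the 3 arrays apart the counts were 6 for C3Bir minus B6 unstimulated, 3 and 6 for the flagellin change of C3Bir and of BC-R3 minus B6, and 4 for the Cdcs1 allele, and the median flagellin difference in BC-R3 was 0.49, against -0.06. With the compared arrays alone the counts were 0 for flagellin in B6, 6 for C3Bir minus B6 unstimulated, 0 for BC-R3 minus B6 unstimulated and 0 for the flagellin change of BC-R3 minus B6. That last count was 0 with eBayes trend and robust options, 1 with quantile normalization and 3 with 1 probe set per gene. With the replicate block within strain it was 0, with Igtp at an adjusted p of 0.0555 and Ifi47 at 0.0597. The additive replicate block added Iigp1 on 1419042_at for C3Bir minus B6 unstimulated (adjusted p = 0.0421, count 4), and the blocks changed no other call. The cause of these shifts was not tested.

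Leaving out single arrays gave 3 to 6 calls for flagellin in B6, 1 to 5 for C3Bir minus B6 unstimulated, 5 to 6 for BC-R3 minus B6 unstimulated, 0 to 1 for the flagellin change of C3Bir minus B6, 0 to 6 for that of BC-R3 minus B6, and 0 to 1 for the Cdcs1 allele. Median differences with no call changed sign for flagellin in BC-R3 (-0.38 to 0.49), C3Bir minus B6 with flagellin (-0.15 to 0.71) and BC-R3 minus B6 with flagellin (-0.37 to 0.69). Others with no call kept their sign over ranges of -0.60 to -0.05 (flagellin in C3Bir), -0.55 to -0.02 (CB-R1 minus C3Bir unstimulated) and -0.25 to -0.04 (background). Counts of all other contrasts and settings that were run stayed within 1.5 times, as shares of the probe sets tested.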
